A study of Mus musculus with 4 samples.

Results

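Interferon regulatory factors (IRFs) are transcription factors that bind GAAA-rich DNA elements and control interferon genes, interferon-stimulated genes and the differentiation of lymphoid and myeloid cells. The genes described here are Irf1, Irf2, Irf3, Irf4, Irf5, Irf7, Irf8 and Irf9, which were taken by name from a table of 52636 mouse genes. All 8 were found, and all 8 were among the 10562 genes that were tested, for which FPKM (sequenced fragments relative to the length of the gene and the size of the library) averaged 1 or more over the libraries. Irf7 met that condition only through the knockout libraries, where it was high, so it could be tested only because it differed.

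IRF3 and IRF7 sit in the cytoplasm until sensors of foreign nucleic acid lead to their phosphorylation, after which they switch on type I interferon genes. Secreted interferon then acts through its receptor and JAK kinases to form ISGF3, a complex that contains STAT2 and IRF9 and induces antiviral genes and Irf7 itself. IRF1 is induced by interferons and IRF2 competes with it for DNA. IRF4 is induced by T cell receptor signals, pairs with BATF and other AP-1 proteins, and is needed for Th17 differentiation, while IRF8 is its closest relative and IRF5 acts mainly in myeloid and B cells.

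RNA was sequenced from Th17 cells, helper T cells that secrete interleukin 17, made in vitro from naive cells of the C57BL/6 strain, from 2 genotypes that the labels call PP2A WT and PP2A cKO, with 2 libraries of each. PP2A is a serine/threonine phosphatase, and neither the deleted subunit nor the Cre driver is named in the labels. Both genotypes were cultured for 2 days with irradiated autologous antigen presenting cells (ratio 1 to 3), 2 µg/ml each of antibodies to CD3 and CD28, the cytokines TGF-β1 at 2 ng/ml and IL-6 at 20 ng/ml, and 10 µg/ml each of antibodies that block IFN-γ and IL-4. Both then received PMA (50 ng/ml) and ionomycin (500 ng/ml) for 4 h. IFN-γ was thus blocked in both groups, and the T cell receptor pathway was driven pharmacologically in both before RNA was taken.

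The libraries held 18517487 to 20387948 gene-assigned reads. The labels call them biological replicates but do not tell whether they came from separate mice or cultures. The p-values therefore reflect only the spread between these libraries, which may be technical. Of 4 catalytic and scaffold genes of PP2A none passed the test (adjusted p from 0.36 to 0.91), so every direction rests on the labels. The lowest p was that of Ppp2ca, the main catalytic gene, whose libraries did not overlap (42.2 and 50.1 FPKM in WT, 41.8 and 34.5 in cKO). The cKO libraries differed from each other along transcript GC content (Spearman's rho across genes = 0.53 for replicate 2 minus replicate 1, against -0.12 in WT; genes are not independent replicates). Of all tested genes 86 (0.814%) were called higher and 27 (0.256%) lower in cKO, at an adjusted p under 0.05 in limma on log2(FPKM + 1). The 2 libraries of one genotype lay apart from those of the other in 55.9% of tested genes, with cKO higher in 27.2% and lower in 28.7%.

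Sequence upstream of the start sites shows which members carry elements that STAT proteins, IRFs or NF-κB can bind. RefSeq windows on GRCm38.p6, 300 bases each from 250 before to 50 after a start, were found for all 8 members, 11 windows in all. They were searched on both strands for the IRF element (ISRE, here GAAA, any 2 bases and GAAA again), the STAT element TTCNNNGAA (GAS), the AP-1 element TGANTCA and the NF-κB motif, and on the gene's own strand for TATAAA. In the stretches below, written 5′ to 3′ on the gene's strand, capitals mark every match. The first 3 are shown for their interferon-related elements.
Irf1, chr11:53769904-53770013 (+): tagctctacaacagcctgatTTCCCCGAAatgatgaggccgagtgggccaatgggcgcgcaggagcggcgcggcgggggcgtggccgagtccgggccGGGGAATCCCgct
Irf8, chr8:120736167-120736233 (+): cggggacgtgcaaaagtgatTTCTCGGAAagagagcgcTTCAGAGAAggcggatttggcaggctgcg
Irf2, chr8:46739495-46739549 (+): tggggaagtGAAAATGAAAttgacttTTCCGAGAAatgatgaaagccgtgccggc

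Irf1 held 1 GAS match, starting 90 bases before its start site, and 1 NF-κB match at 13 bases. Irf8 held 2 GAS matches, at 171 and 153 bases, and Irf2 held an ISRE match at 241, a GAS match at 224 and an NF-κB match at 17 bases. Across all 32851 windows of the table, 8.30% held a GAS match, 3.44% an ISRE match, 4.51% an NF-κB match and 7.81% an AP-1 match. No member window held an AP-1 match. The windows of Irf3, Irf4, Irf5, Irf7 and Irf9 held none of the 4 kinds, which says only that these letters do not occur there. The Irf9 windows followed RefSeq starts inside the annotated gene (chr14:55603571-55610030), so the bases before its annotated start were not searched.

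A TATAAA stood upstream of a RefSeq start of Irf4, Irf7 and Irf8, against 8.32% of all windows. The 30 bases around it are shown because these genes include the most abundant member and the most changed one.
Irf4, chr13:30749198-30749227 (+): ctccggctcTATAAAgttcctctttctcac
Irf7, chr7:141266433-141266462 (-): ccgaagtacTATAAAagcactggcaccctc
Irf8, chr8:120736318-120736347 (+): cgccccatcTATAAAagcaggcgcgcgcgt
The TATAAA began 26, 29 and 31 bases before the RefSeq start sites of Irf4, Irf7 and Irf8. That of Irf7 lay inside the annotated span of the gene (chr7:141262706-141266481), whose annotated start is further upstream. These 3 genes behaved differently in the comparison of genotypes, as described next: Irf7 was higher in cKO, Irf4 had lower values, and the Irf8 libraries overlapped.

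Irf4 made up most of the IRF RNA in these cells. Its level was 245 and 263 FPKM in WT libraries, against 184 and 186 FPKM in cKO libraries, above 98.2% of tested genes in WT. The next member, Irf3, had 20.2 and 20.4 FPKM in WT, against 17.5 and 21.9 FPKM in cKO. Irf8 and Irf9 lay between 9.78 and 11.2 FPKM in WT, Irf1, Irf2 and Irf5 between 4.10 and 6.91, and Irf7 under 1. Irf4 took 81.3% and 82.1% of the summed FPKM of the 8 genes in WT, against 74.9% and 71.5% in cKO.

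The order of levels was Irf4, Irf3, Irf8, Irf9, Irf1, Irf2, Irf5 and Irf7 in both WT libraries. In both cKO libraries Irf9 stood above Irf8, and in cKO replicate 2 Irf5 also stood above Irf2. Neighbours that overlapped were Irf2 and Irf5 in either genotype (WT 4.18 and 4.65 against 4.10 and 4.31 FPKM, cKO 5.09 and 5.47 against 4.46 and 6.09). The length behind the FPKM values equalled the exons of all GENCODE transcripts of a gene for all 8 members, and for Irf7 it was the whole 3776-base span of the gene. Per length of the longest coding transcript, Irf7 reached 1.37 and 1.19 FPKM in WT, against 4.44 and 5.09 FPKM in cKO, and Irf4 took 69.7% and 70.6% in WT and 61.1% and 57.2% in cKO. Irf1 and Irf2 changed places in WT replicate 2 and cKO replicate 1 on that scale.

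**Figure D1:**
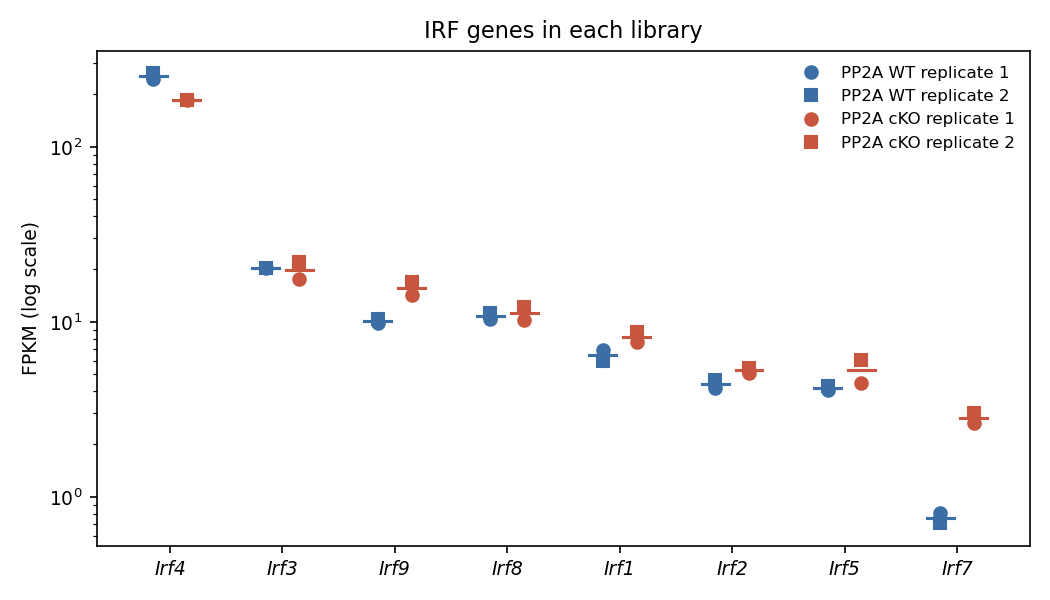
FPKM (y axis, log scale) of the 8 IRF genes (x axis, ordered by mean) for every library of either genotype, PP2A WT or PP2A cKO, where a bar marks a mean of 2 libraries. Irf4 lies at 184 to 263 FPKM, and Irf7 is under 1 FPKM in both WT libraries and at 2.63 and 3.02 in the cKO libraries.

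Of the 8 members, Irf7 rose in cKO past the threshold and none fell, against 0.814% and 0.256% of all tested genes. Irf7 met the filter only through cKO, and of the 7 other members 0 rose and 0 fell. The genotypes did not overlap in 6 members, with cKO higher in 5 and lower in 1, against 27.2% and 28.7% of all tested genes. The median log2 fold change was 0.24 over the 8 members, 0.21 without Irf7, and -0.003 over all tested genes. Fitted instead on reads recovered from the FPKM values with limma voom, Irf7 and Irf9 were higher and Irf4 lower, where 5.87% of tested genes were called (2.52% higher and 3.35% lower). An unadjusted p under 0.05 was reached by 4 members in limma, against 19.8% of all tested genes. A lower total in bulk RNA cannot tell fewer expressing cells from less RNA per cell.

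Irf7, the master regulator of interferon-α genes, had the largest change of the family. The gene (ENSMUSG00000025498, chr7:141262706-141266481, GRCm38, minus strand) had 0.812 and 0.707 FPKM in WT, against 2.63 and 3.02 FPKM in cKO. These values rest on 60 and 51 reads in WT and 202 and 221 in cKO. The 95% exact Poisson intervals, which cover counting error only, reached at most 1.05 FPKM in WT and at least 2.28 in cKO, so the genotypes lay apart by more than counting error. The mean was 3.72-fold higher in cKO (0.759 ± 0.0743 against 2.83 ± 0.272 FPKM, SD, n = 2).

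On the log2(FPKM + 1) scale the change of Irf7 was 1.12 ± 0.12 (SE; limma, adjusted p = 0.0356). That scale understates a change of a gene near 1 FPKM, and voom on the reads gave 1.85 ± 0.21 (adjusted p = 0.00676). Each cKO library showed it, with 1.05 for replicate 1 and 1.19 for replicate 2 against the WT mean. The call was lost without WT replicate 1 (adjusted p = 0.0535), without WT replicate 2 (0.0815), with no filter on low values (0.168) and on the TPM scale (0.0556), while the direction held in all of these. The gene shares 45 exonic bases with Phrf1 on the other strand, which had 15.4 to 19.3 FPKM with overlapping genotypes.

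Irf9, the DNA-binding subunit of ISGF3, was next. The gene (chr14:55603571-55610030, plus strand) had 9.78 and 10.3 FPKM in WT, against 14.3 and 16.8 FPKM in cKO, so both cKO values were above both WT values. Its mean was 1.55-fold higher in cKO (10.1 ± 0.381 against 15.5 ± 1.77 FPKM, SD, n = 2). The log2 fold change of 0.58 ± 0.11 did not pass the threshold in limma (adjusted p = 0.078) and passed it in voom (0.59 ± 0.12, adjusted p = 0.0357). It also passed after a correction for GC content (adjusted p = 0.0454), with protein-coding genes only (0.0397), without cKO replicate 1 (0.0471) and without cKO replicate 2 (0.022), but not without WT replicate 1 or 2 (0.421 and 0.407). Irf9 shares 123 exonic bases, 2.28% of its length, with Rnf31 on the same strand, which had 16.0 and 14.6 FPKM in WT and, with overlapping genotypes, 13.0 and 20.3 in cKO.

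Stat2, which encodes a partner of IRF9 in ISGF3, was higher in cKO as well. It had 3.73 and 3.93 FPKM in WT, against 6.59 and 7.03 FPKM in cKO, a rise past the threshold (log2 fold change 0.69 ± 0.09, limma, adjusted p = 0.0491). The log2 fold changes of Irf9 and Stat2 thus lay at 0.58 and 0.69. Stat2 was not called without WT replicate 1 or without WT replicate 2.

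Irf1, the first IRF to be described and an activator of antigen presentation genes, had 6.91 and 5.99 FPKM in WT, against 7.66 and 8.78 FPKM in cKO. The genotypes did not overlap, but the gap between them was no larger than the distance between the WT libraries. Its log2 fold change of 0.31 ± 0.11 (95% interval 0.02 to 0.60) did not pass the threshold (limma, adjusted p = 0.231). Irf2, its antagonist, had 4.18 and 4.65 FPKM in WT, against 5.09 and 5.47 FPKM in cKO. Its change of 0.21 ± 0.10 (interval -0.03 to 0.46) did not pass either (adjusted p = 0.302). The ratio of Irf1 to Irf2 in FPKM was 1.65 and 1.29 in WT and 1.51 and 1.60 in cKO, with overlapping genotypes.

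Irf8, whose window like that of Irf1 holds GAS matches, had overlapping genotypes. It had 10.4 and 11.2 FPKM in WT, against 10.3 and 12.1 FPKM in cKO (log2 fold change 0.04 ± 0.11, interval -0.24 to 0.32, adjusted p = 0.847). Irf5 had 4.10 and 4.31 FPKM in WT, against 4.46 and 6.09 FPKM in cKO, so the 2 cKO libraries differed from each other by more than replicate 1 did from WT. Its log2 fold change was 0.26 ± 0.15 (interval -0.11 to 0.63, adjusted p = 0.379), at 0.07 for replicate 1 and 0.45 for replicate 2. Irf5 shares 411 exonic bases, 14.1% of its length, with Tnpo3 on the other strand, at 9.80 to 10.8 FPKM. Without known strand these reads cannot be told apart.

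Irf3, which is expressed constitutively and regulated by phosphorylation, had one cKO library under and one above the WT values given above. Its log2 fold change was -0.05 ± 0.13 (interval -0.38 to 0.28, adjusted p = 0.847), at -0.20 for cKO replicate 1 and 0.10 for replicate 2. Its transcripts have a GC content of 56.7%, the highest among the 8 members, and the sign turned after the GC correction (0.05). Irf7 stood at 4.02% and 3.47% of Irf3 in FPKM in WT, against 15.04% and 13.8% in cKO.

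Irf4, the member induced by T cell receptor signals, had lower values in cKO. Both cKO libraries (184 and 186 FPKM) lay under both WT libraries (245 and 263), and the WT mean was 1.37-fold that of cKO (254 ± 12.8 against 185 ± 1.38 FPKM, SD, n = 2). The gene (chr13:30749226-30766976, plus strand) overlaps no other, and 17715 to 24658 reads stood behind each value. The log2 fold change of -0.45 ± 0.10 did not pass in limma (interval -0.71 to -0.19, adjusted p = 0.102). It passed in voom (-0.49 ± 0.11, adjusted p = 0.0452), where 3.35% of all tested genes were called lower. Over the 19 alternatives the change of Irf4 ran from -0.64 to -0.40, and only 2 of the 19 passed. It was -0.50 without WT replicate 1 and -0.40 without WT replicate 2. Against the WT mean, cKO replicates 1 and 2 were at -0.46 and -0.45, so the size did not depend on the cKO library.

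**Figure D2:**
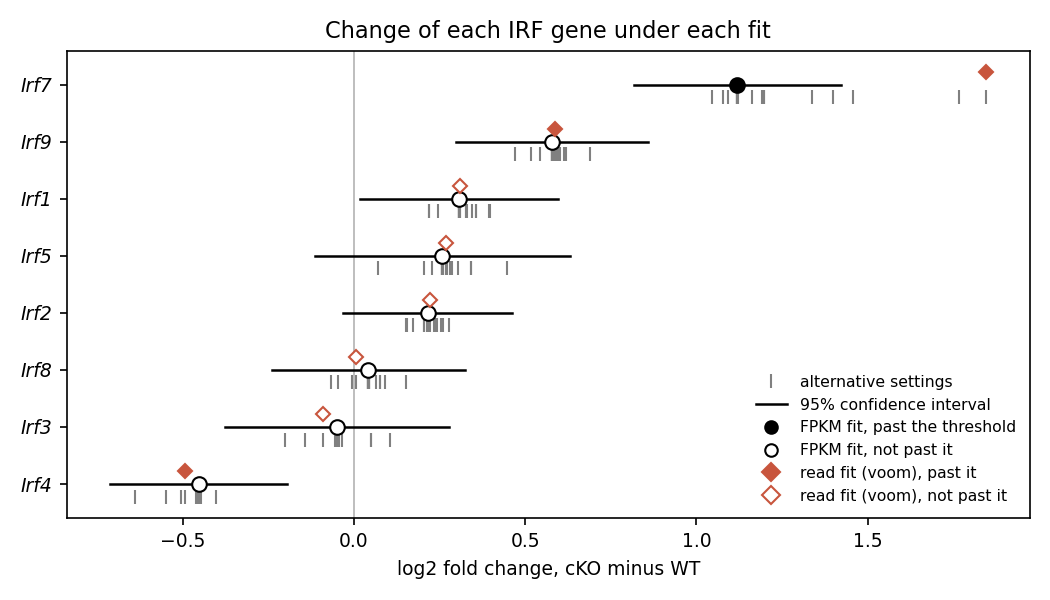
Log2 fold change, cKO minus WT (x axis), of each IRF gene (y axis). Circles are the fit on log2(FPKM + 1) with 95% confidence intervals, diamonds the voom fit on recovered reads, filled where the adjusted p is under 0.05, and grey ticks the alternative settings. Irf7 is at 1.12 in the first fit and 1.85 in the second, and Irf4 is under 0 under every setting drawn.

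The interferon-induced members were set beside Irf4 within each library, as the difference in log2(FPKM + 1) between member and Irf4. For Irf7 this was -7.09 and -7.27 in WT and -5.67 and -5.54 in cKO, a shift of 1.57. For Irf9 it was -4.51 and -4.54 in WT and -3.60 and -3.40 in cKO, a shift of 1.03. The shift was 0.76 for Irf1, 0.71 for Irf5 and 0.49 for Irf8, and the last is close to the size of the Irf4 change alone. In all 5 members both cKO values lay above both WT values, also in Irf8, whose own FPKM values overlapped between genotypes. Separation on this measure therefore does not show that a member itself changed. The change of Irf4 itself (-0.45, against a median of -0.003 over all tested genes) enters each shift. How many other genes would be separated in this way when set beside Irf4 was not computed. The 5 comparisons share the Irf4 values, and an exact two-sided permutation test of 2 against 2 libraries gave p = 0.333 for each (also after adjustment over the 5), the smallest p this design allows. In FPKM, Irf9 stood at 3.99% and 3.92% of Irf4 in WT and at 7.75% and 9.02% in cKO.

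**Figure D3:**
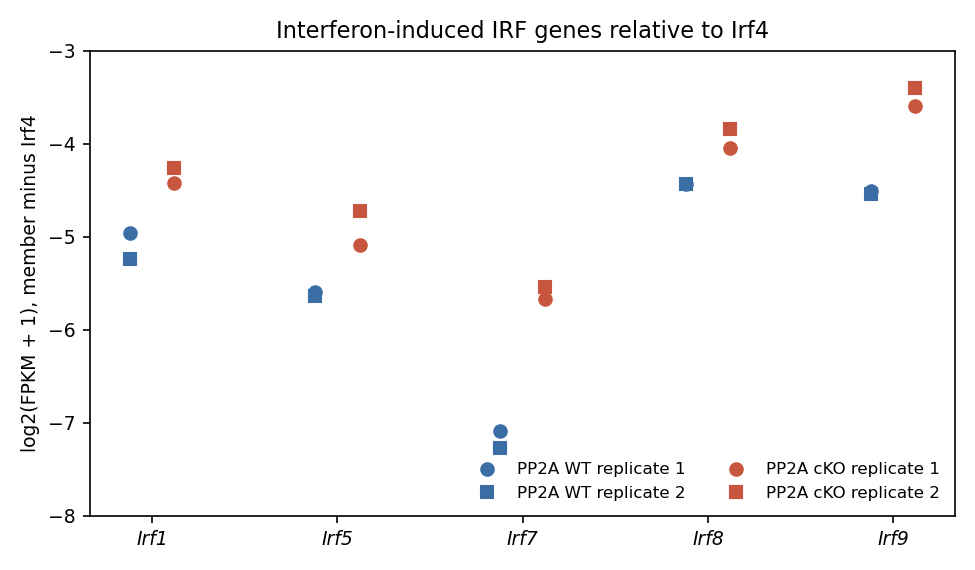
Difference in log2(FPKM + 1) between each interferon-induced IRF gene and Irf4 (y axis) in each library, for 5 genes (x axis). Both cKO libraries lie above both WT libraries for each gene, by 0.49 for Irf8 up to 1.57 for Irf7. The lower Irf4 values in cKO enter every difference, so a separation here does not show that the member itself changed.

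Genes upstream and downstream of the family were taken from lists by role. The lists were chosen with earlier results of these data known, so their shares of calls are descriptive only. Of 21 interferon genes 12 were at 0 in all libraries, and Ifng was the single gene tested, with 9.23 and 7.92 FPKM in WT, against 20.8 and 14.3 FPKM in cKO (log2 fold change 0.93 ± 0.19, limma, adjusted p = 0.0839; voom, adjusted p = 0.0418). Ifnb1, the first type I interferon gene that IRF3 and IRF7 induce, was looked at after its values were seen: it had 0 reads in both WT libraries, 4 in cKO replicate 1 and 1 in replicate 2, too few to compare. Of 10 tested receptor, JAK and STAT genes Stat2 rose and none fell, against 0.814% and 0.256% of all tested genes.

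The median log2 fold change of 18 tested sensors and kinases that act on IRF3, IRF5 and IRF7 was 0.08. Against 0.814% and 0.256% of all tested genes, 2 of them rose and none fell. They were Ifih1, which encodes the double-stranded RNA sensor MDA5 (4.24 and 3.87 FPKM in WT, 18.0 and 15.5 in cKO; 1.81 ± 0.11, adjusted p = 0.0166), and Zbp1, a sensor of Z-form nucleic acid (1.64 and 1.62 FPKM in WT, 5.01 and 5.95 in cKO; 1.30 ± 0.11, adjusted p = 0.027). Both are themselves interferon-stimulated. With any 1 of the 4 libraries left out, the median of the list stayed between 0.05 and 0.10. Without cKO replicate 2 more of the list were called lower, as over all tested genes. The Toll-like receptor genes Tlr3, Tlr4, Tlr7, Tlr8 and Tlr9 stayed under the filter.

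Of 15 tested ISGF3 target genes 8 rose and none fell, against 0.814% and 0.256% of all tested genes. Their median log2 fold change was 0.92, against -0.003 over all tested genes. Xaf1 and Usp18 met the filter only through cKO, and of the 13 others 7 rose, with a median of 0.86. The 3 largest changes past the threshold were those of Oas3 (1.80 ± 0.13), Ifi27 (1.62 ± 0.12) and Trim30a (1.57 ± 0.09), with adjusted p from 0.0146 to 0.0206. Oas3, an antiviral oligoadenylate synthetase gene, had 1.16 and 1.05 FPKM in WT, against 5.64 and 7.13 FPKM in cKO. Of the 17 list genes under the filter, 1 was at 0 in all libraries and 15 had both cKO values above both WT values, against 15.9% of all genes under the filter with a value above 0. Some of the 15 had at most 9 reads in any library, and the share over all genes was not matched for read number. Fewer of the list were called without either WT library and more without either cKO library, as over all tested genes. The median was 0.95 and 0.97 without WT replicates 1 and 2, and 0.91 and 0.89 without cKO replicates 1 and 2.

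Of 19 tested IRF1 target genes 3 rose and none fell, against 0.814% and 0.256% of all tested genes, with a median of 0.44. Gbp3 met the filter only through cKO, and of the 18 others 3 rose, with a median of 0.49. Irgm1 and Igtp, which encode interferon-inducible GTPases of cell-autonomous defence, changed by 1.44 ± 0.13 and 1.08 ± 0.10 (adjusted p = 0.028 and 0.0273). Cd274, the gene of PD-L1, changed by 1.07 ± 0.11 (adjusted p = 0.0342), with 22.7 and 20.7 FPKM in WT, against 48.9 and 44.5 FPKM in cKO. Fewer genes of this list were called without either WT library and more without either cKO library, as over all tested genes. The median was 0.48 and 0.47 without WT replicates 1 and 2, and 0.55 and 0.50 without cKO replicates 1 and 2. Bst2 stands in both this list and the ISGF3 list.

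The partners of IRF4 and IRF8 gave no call among 12 tested genes (limma), with 1 lower in voom. Batf, the AP-1 protein that binds DNA with IRF4, had 53.0 and 52.1 FPKM in WT, against 58.4 and 57.1 FPKM in cKO (0.13 ± 0.09, adjusted p = 0.45), so Batf and Irf4 differed in sign. Jund had the largest change of the list (0.48 ± 0.12, adjusted p = 0.125). Of 18 tested T cell genes that depend on IRF4, 3 rose and none fell, against 0.814% and 0.256% of all tested genes. The 3 were Tbx21 (1.32 ± 0.14), Il10 (1.29 ± 0.11) and Maf (0.87 ± 0.09), with adjusted p from 0.027 to 0.0356. The list went both ways, with a median of 0.10. Both cKO libraries lay above WT in 7 of the 18 and under it in 6, against 27.2% and 28.7% of all tested genes. Il17a, in the same list, had 757 and 628 FPKM in WT, against 521 and 479 FPKM in cKO (-0.46 ± 0.14, adjusted p = 0.159). None of the 18 was called without WT replicate 1 or without WT replicate 2.

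The 3 IRF2-binding corepressor genes had lower values in cKO, and none passed (limma, adjusted p from 0.162 to 0.266). Leaving out a cKO library brought lower calls among them, as it brought more lower calls over all tested genes. Leaving out a WT library brought none, with a median of -0.67 without either one. Irf2bp2, the most changed, had 39.9 and 41.2 FPKM in WT, against 14.7 and 27.8 FPKM in cKO (-0.97 ± 0.29). Irf2bp1 and Irf2bpl had the same order, with cKO replicate 1 lowest (21.05 and 12.6 FPKM), replicate 2 next (34.9 and 23.3) and WT highest. The median of the 3 was -1.09 for replicate 1 and -0.26 for replicate 2. Their transcripts have GC contents of 63.6%, 54.6% and 59.96% for Irf2bp1, Irf2bp2 and Irf2bpl. Against the WT mean, cKO replicates 1 and 2 were at -0.96 and -0.26 for Irf2bp1. They were at -1.40 and -0.53 for Irf2bp2, and at -1.09 and -0.26 for Irf2bpl. The part of GC content in these differences was not tested. With the GC correction the median of the 3 genes was -0.52, and none was called.

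**Figure D4:**
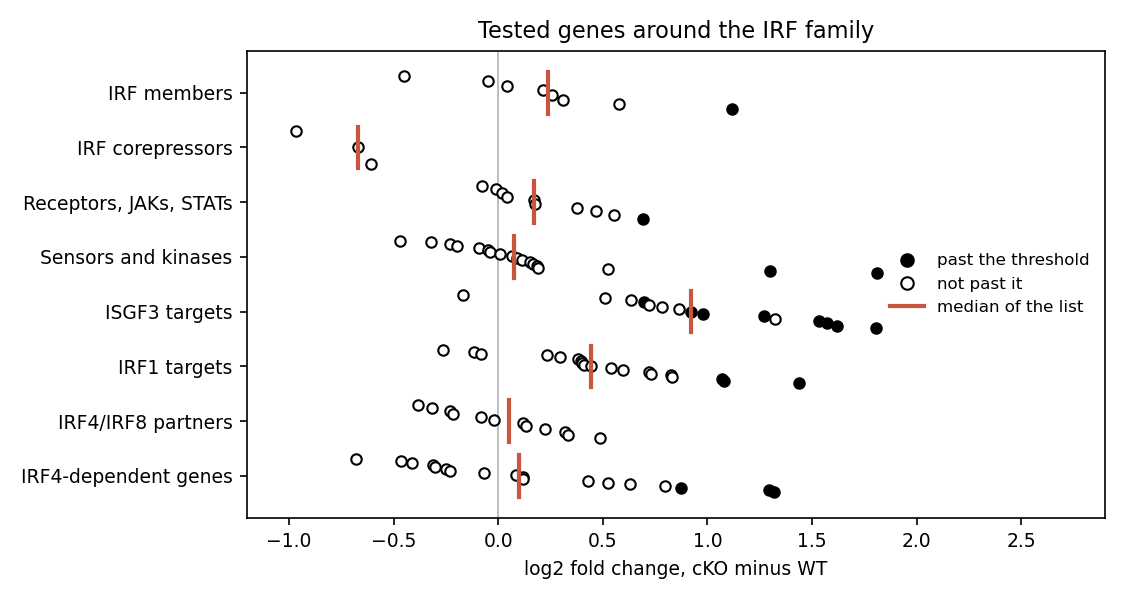
Log2 fold change, cKO minus WT (x axis), of the tested genes in 8 lists, the IRF family and 7 around it (y axis), one circle a gene, filled where the adjusted p is under 0.05, with the median of each list as a bar. The medians are 0.92 for ISGF3 targets, 0.44 for IRF1 targets and 0.05 for the partners of IRF4 and IRF8.

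By a fixed distance rule (Euclidean, on log2(FPKM + 1) centred on each gene's mean, over the 4 libraries, among genes averaging 5 FPKM or more), the genes most like Irf4 were Dlgap5, Fads1 and Ncapd3, at distances of 0.0082, 0.024 and 0.028. Those most like Irf7 were Igtp, Egr1 and C3, at 0.099, 0.16 and 0.17. In mean FPKM, Irf7 was 3.72-fold and Igtp 2.18-fold higher in cKO, so the likeness to Igtp holds on the log2(FPKM + 1) scale only. Those most like Irf1 were Eml2, Csrnp1 and Ece1, at 0.042, 0.044 and 0.046. With 4 libraries such likeness describes the values only.

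T cell and Th17 markers were present in all libraries, with none of 14 called (limma; 3 higher and 1 lower in voom). Cd5 had the largest change among them (0.83 ± 0.15, adjusted p = 0.0734). Irf5, Irf7 and Irf8 are also expressed by antigen presenting cells, which were in the cultures. The summed FPKM of 10 monocyte and macrophage markers was 1.53 and 1.64 in WT and 1.63 and 1.70 in cKO, and Lyz2, Csf1r and Adgre1 were at or near 0. All 10 were under the filter. Both cKO values lay above both WT values in 5 of them and under both in 1. Among all genes under the filter with a value above 0, cKO was higher in this way in 15.9%. Of 11 B cell markers Ighm was the single gene tested (7.02 and 8.35 FPKM in WT, 4.05 and 4.29 in cKO; limma, adjusted p = 0.0564; voom, adjusted p = 0.0268), and the other 10 summed to 1.08 to 1.49 in WT and 1.10 to 1.44 in cKO.

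Of 11 dendritic cell markers Siglech, Clec9a and Cd209a were at 0 in all libraries. The sum of the list was 91.2 and 87.6 FPKM in WT and 110 and 124 in cKO, of which Bst2 and Ccr7, both also expressed by T cells, made up most. The other 9, a split chosen after the values were seen, summed to 1.29 and 1.01 in WT and 1.81 and 1.63 in cKO. Most of that difference lay in Batf3, which is also in the list of IRF4 and IRF8 partners. It had 0.352 and 0.229 FPKM in WT, against 0.832 and 0.678 FPKM in cKO. The part of cells with these markers in the values of Irf7 and Irf9 was not tested. Irf8 alone stood at 10.3 to 12.1 FPKM in the same libraries. The 6 NK and CD8 T cell markers summed to 11.3 and 12.6 FPKM in WT and 14.9 and 14.3 in cKO, with Klrb1c and Ncr1 at 0.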

How the data were processed

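Per the labels' protocols, RNA was extracted with a column kit and libraries were made with a NEBNext Ultra kit. The authors deposited FPKM values per gene for 4 libraries, with gene lengths. The submitters' processing notes list featureCounts 1.5.0-p3, GRCm38 and mm10. The aligner, annotation release and strand setting were not given in the sources used here.

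Genes averaging 1 FPKM or more were compared, cKO minus WT, on log2(FPKM + 1) by limma (version 3.58.1, R version 4.3.3), with a variance trend, Benjamini-Hochberg adjustment over all tested genes and a threshold of 0.05, two-sided. Adjusted p-values in the text come from this fit unless voom is named. FPKM times gene length was a whole multiple of one step per library for 100.0% of values, within 0.01 read for values under 5000 reads, and the reads so recovered were used for voom and counting intervals. Coordinates matched GENCODE M21 for all 8 members.

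The members and gene lists were chosen with earlier results of these data known. The text names all members, Stat2 and Batf, and from each list the called genes (at most 3 a direction, by size of change) or, with none called, the gene that changed most. For Irf1, Irf4 and Irf7 it names the 3 nearest genes by pattern. One further gene of the rule is not reported here. For lists of other cell types it gives sums and genes at 0. Il17a, Ifnb1, Irf2bp1, Irf2bpl, Ighm, Bst2, Ccr7, Lyz2, Csf1r, Adgre1, Gbp3 and the Toll-like receptor genes were named after their values were seen. Alternatives were pseudocounts, filters, scalings, variance settings, a GC correction, a replicate block, voom, protein-coding genes only and omission of each library. The longest coding transcript as gene length was added after the data were seen.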

Additional observations from a re-analysis of the deposited data

How the results depend on the processing

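Of the alternatives for single members, 132 kept the direction and side of the threshold, 4 lost the call of Irf7, 7 added a call for Irf9 or Irf4, and 6 turned the sign of Irf3 or Irf8, neither of which was called under any setting. Irf3 went from -0.049 to 0.049 with the GC correction, alone or with the replicate block, and to between -0.20 and 0.10 with 1 library left out (0.10 without cKO replicate 1). Irf8 went from 0.042 to -0.046 on the TPM scale and to between -0.067 and 0.15 with 1 library left out, being under 0 without WT replicate 1 and without cKO replicate 2. The number of members called higher was 1, and it was 0 with no filter, 0 with a filter of 5 FPKM (which leaves Irf7, Irf2 and Irf5 untested), 0 on the TPM scale, 2 with the GC correction, 2 in voom, 2 with protein-coding genes only, and 0 to 2 with 1 library left out. The number called lower was 0, and it was 1 in voom and 0 to 1 with 1 library left out.

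Over all genes, 86 were higher and 27 lower. The counts were 0 and 0 with no filter (lowest adjusted p 0.148; 3012 genes at an unadjusted p under 0.05), 25 and 1 on the TPM scale, 285 and 237 with the GC correction, 266 and 354 in voom, and 259 and 239 with protein-coding genes only. With a pseudocount of 0.1, 15 were lower, and with the longest coding transcript as length 52 were lower. With 1 library left out, 49 to 1390 were higher and 6 to 1614 lower, where the lone library is assumed to vary like the other genotype. The share of higher calls was 76.1%, against 42.9% in voom, 54.6% with the GC correction, 52.0% with protein-coding genes only, 96.2% on the TPM scale, 65.6% with a filter of 5 FPKM, 86.8% without WT replicate 1, 89.1% without WT replicate 2, 56.5% without cKO replicate 1 and 46.3% without cKO replicate 2. The cause of these shifts was not tested.

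The genotypes share replicate numbers in the labels, with nothing to say that a number marks a shared mouse or day. The differences between replicates 1 and 2 had a Pearson's r of -0.09 between genotypes across tested genes. With 1 difference in each genotype, this cannot tell whether a mouse or day was shared. A fit with the replicate block called 154 genes higher and 73 lower, 166 and 86 with the GC correction added, and in both Irf7 was the single member called. Precision is limited by 2 libraries a genotype, and for Irf7 in WT by 51 to 60 reads.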
